A study of Homo sapiens with 24 samples.

Results

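The genes described here are 38 that encode the constitutive proteasome and the factors that act on it, measured in 2 human biliary tract cancer cell lines treated with sorafenib. They are 7 alpha-ring and 7 beta-ring subunits of the 20S core, 6 ATPases and 4 other subunits of the 19S base, 8 lid subunits, the 4 activators PSME1 to PSME4, the maturation factor POMP and the transcription factor NFE2L1. They were listed by name from the known composition of the complex and matched by symbol to Ensembl gene IDs. All 38 were among the 78724 gene IDs of both count tables, and all 38 passed the filter on low counts in both lines.

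The proteasome degrades proteins tagged with ubiquitin. The 20S core is a barrel of 2 outer alpha rings and 2 inner beta rings, of which PSMB5, PSMB6 and PSMB7 carry the cutting sites, and the 19S particle binds, unfolds and feeds in the substrate. Interferon induces the alternative catalytic subunits PSMB8, PSMB9 and PSMB10 and the PSME1-PSME2 activator, while NFE2L1, a factor held at the endoplasmic reticulum and cut by DDI2, raises the genes of the constitutive subunits when proteasome activity is short.

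Libraries of the mRNA sequencing type covered 24 cultures. HuCCT1, an intrahepatic cholangiocarcinoma line grown in RPMI-1640, and OCUG-1, a gallbladder cancer line grown in DMEM, were each kept for 72 h in DMSO vehicle or in sorafenib at 1.25 µM or 10 µM. A further arm of each line combined the lower dose with 1 µM IACS-010759, and every group had 3 biological replicates. Sorafenib inhibits several kinases, and IACS-010759 inhibits complex I of the respiratory chain. No group used here had IACS-010759 alone, so its addition was measured on top of 1.25 µM sorafenib. Each line is a single line, and line and medium differed together.

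Levels are given as CPM, counts divided by library size, scaled by the trimmed mean of M values (TMM). Differences are log2 fold changes with their standard error (SE), tested with edgeR's quasi-likelihood test across all genes, and a gene is said to have risen or fallen where its Benjamini-Hochberg adjusted p was under 0.05. Total counts ran from 18238834 to 30693736 in HuCCT1 and from 14388855 to 24019011 in OCUG-1. Biliary epithelial markers were present, with 7 of 7 above 10 CPM in HuCCT1 and 6 of 7 in OCUG-1, whereas 0 of 5 immune and 0 of 4 endothelial markers reached that level in either line. Of 5 fibroblast markers only COL1A1 did, with means over all arms of 23.4 CPM in HuCCT1 and 61.2 in OCUG-1. P-values measure the spread between these replicate cultures. Replicate 3 of HuCCT1 stood apart from replicates 1 and 2 in vehicle and both sorafenib arms: the chi-square per degree of freedom of their counts was 27.3 to 50.6 for pairs with replicate 3 and 5.45 to 11.7 for replicates 1 and 2. HuCCT1 counts are therefore given with and without it. In bulk RNA, a change in the mix of cells and a change in the RNA per cell cannot be told apart.

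Short promoter windows of 6 genes are printed because the PSME1-PSME2 activator with PSMB10 and the constitutive subunits are known from textbook work as targets of different factors. The data did not part them throughout. PSMB3, like PSME1 and PSME2, was lower in the OCUG-1 combination than under 1.25 µM sorafenib. RefSeq promoters on GRCh38.p14, from 250 bases before to 50 after the start, were matched for 33 of the 38 genes. The first 3 windows hold the letters GAAAGCGAAA in capitals, an instance of the interferon-stimulated response element core, which is GAAA, any 2 bases and GAAA, and all 3 are printed from the minus strand.
PSME1 (chr14:24136189-24136218): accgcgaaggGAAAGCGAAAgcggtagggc
PSME2 (chr14:24146619-24146648): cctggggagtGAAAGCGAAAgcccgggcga
PSMB10 (chr16:67936852-67936881): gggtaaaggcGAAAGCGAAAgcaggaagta
The next 3 hold the antioxidant response element core TGACNNNGC in capitals, the type of site that NFE2L1 can bind. PSMB3 and PSMD3 are printed from the plus strand and PSMD12 from the minus strand.
PSMB3 (chr17:38752627-38752656): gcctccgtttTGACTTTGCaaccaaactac
PSMD3 (chr17:39980760-39980789): tcccctttgtTGACTCGGCcatcggcctgc
PSMD12 (chr17:67366723-67366752): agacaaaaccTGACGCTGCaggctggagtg

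Both strands were searched. The interferon-stimulated core was in the promoters of 4 of the 33 genes (PSMA4, PSMB4, PSME1 and PSME2; 12.1%) and in 3.65% of all 27305 promoters. The exact letters GAAAGCGAAA, chosen after the values were seen, were in 30 promoters of all (0.11%), among them PSME1, PSME2 and PSMB10. The assembly chaperone PSMG4 held them too, and its levels at 1.25 µM and in the combination overlapped in both lines. In HuCCT1 they overlapped only through 1.25 µM replicate 3. PSMG4 read 46.5, 43.4 and 31.7 CPM there at 1.25 µM and 32.9, 28.0 and 31.0 in the combination. No match to the core was found in the promoter of PSMB9, which was lower in the combination than at 1.25 µM in both lines. TGACNNNGC was in 9 of the 33 (27.3%; among them PSMB3, PSMD3 and PSMD12, and also the activators PSME1, PSME2 and PSME4) and in 13.6% of all promoters. Its stricter form TGACTCAGC, which overlaps it, was in 0 of the 33 and in 0.564% of all. CCAAT, the NF-Y box, was in 17 of the 33 (51.5%) and in 35.7% of all, and TTCNNNGAA, the gamma-activated sequence, in 4 of the 33 (12.1%) and in 7.88% of all. A match says only that these letters are in the window, and no factor binding was measured.

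**Figure D1:**
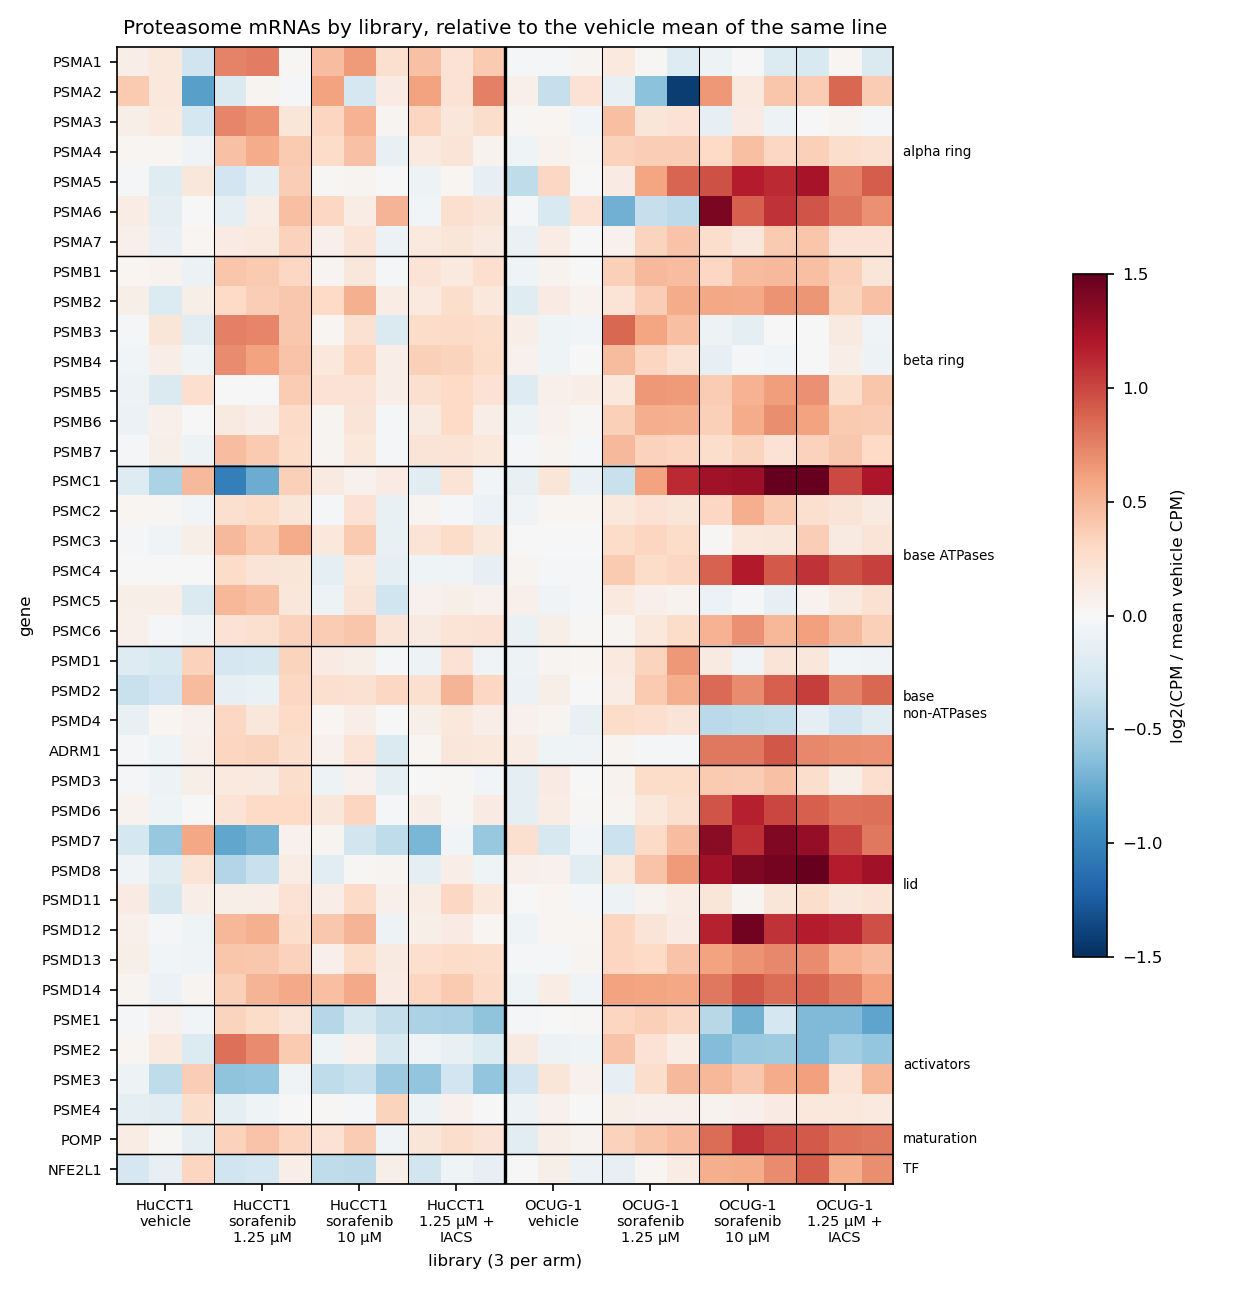
Each row is a gene, grouped by its place in the proteasome, and each column a library. Colour gives log2 of the gene's CPM over its mean vehicle CPM in the same line, so white is the vehicle level. In OCUG-1 the lid, several ATPases, POMP and NFE2L1 turn red at 10 µM and in the combination while PSME1 and PSME2 turn blue, and the 6 HuCCT1 columns of the same arms stay paler.

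At 1.25 µM sorafenib, proteasome genes rose in both lines and none fell. In HuCCT1, 14 of 38 rose and 0 fell, where 18.5% of all genes tested were called, 9.98% higher and 8.5% lower; the members' median log2 fold change was 0.26 against 0.00 over all genes. In OCUG-1, 14 rose and 0 fell, where 10.5% of all genes were called, 5.92% higher and 4.61% lower, with a median of 0.29 against -0.03. Of these, 9 were shared, which is 64.3% of each line's list: PSMA4, PSMB1, PSMB2, PSMB3, PSMB4, PSMB7, PSMD13, PSMD14 and POMP. Calls that held in every alternative run were 3 of the 14 in HuCCT1 (PSMB3, PSMB4 and PSME2) and 2 of the 14 in OCUG-1 (PSMB3 and PSMD14). Without replicate 3 of every arm, HuCCT1 had 20 higher and 3 lower, and 14 of the 14 calls were among them. Leaving out one 1.25 µM library took the HuCCT1 count to 8 (replicate 1) or 7 (replicate 2). The OCUG-1 count became 3 or 6 with 1.25 µM replicate 2 or replicate 3 left out, and 5 with vehicle replicate 1 or replicate 3 left out. With plain library-size scaling, which lowers the median of all genes by 0.145 in HuCCT1, 3 HuCCT1 genes were higher, and in OCUG-1 5 were higher and 1 lower. The share of counts from mitochondrial genes in HuCCT1 was 7.08 to 14.1% in vehicle and 12.5 to 21.8% at 1.25 µM, and its part in the result was not tested.

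At 10 µM the lines parted. In OCUG-1, 25 of 38 rose and 3 fell, where 63.1% of all genes were called, 32.4% higher and 30.7% lower; the members' median was 0.46 against 0.00 over all genes. In HuCCT1, 3 rose (PSMB2, PSMC6 and PSMD14) and 1 fell (PSME1), where 24.2% of all genes were called, 13% higher and 11.2% lower. Leaving out one library took the HuCCT1 count to 0 (10 µM replicate 1), 1 (10 µM replicate 2 or vehicle replicate 2) or 8 (10 µM replicate 3), and it was 14 higher with 1 lower without replicate 3 of every arm. The response of 19 members differed between the lines by the interaction term of a joint fit, 15 higher in OCUG-1 and 4 lower, where 43.8% of all genes differed, 20.7% higher and 23.1% lower. Of these 19, 11 held in every alternative: ADRM1, NFE2L1, POMP, PSMA5, PSMC4, PSMD6, PSMD7, PSMD8, PSMD12, PSMD13 and PSME2. With replicate 3 of every HuCCT1 arm left out, 11 were higher and 5 lower. At 1.25 µM that term was called for 1 member, PSMD8, where 9.65% of all genes differed, 4.96% higher and 4.69% lower; leaving out 1 library took this count to 0 (1.25 µM replicate 1 or 2 or vehicle replicate 3 of HuCCT1; 1.25 µM replicate 2 or 3 or vehicle replicate 3 of OCUG-1), 2 (HuCCT1 vehicle replicate 2), 3 (OCUG-1 1.25 µM replicate 1) or 7 (HuCCT1 1.25 µM replicate 3), and without replicate 3 of every HuCCT1 arm 1 was higher and 1 lower.

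**Figure D2:**
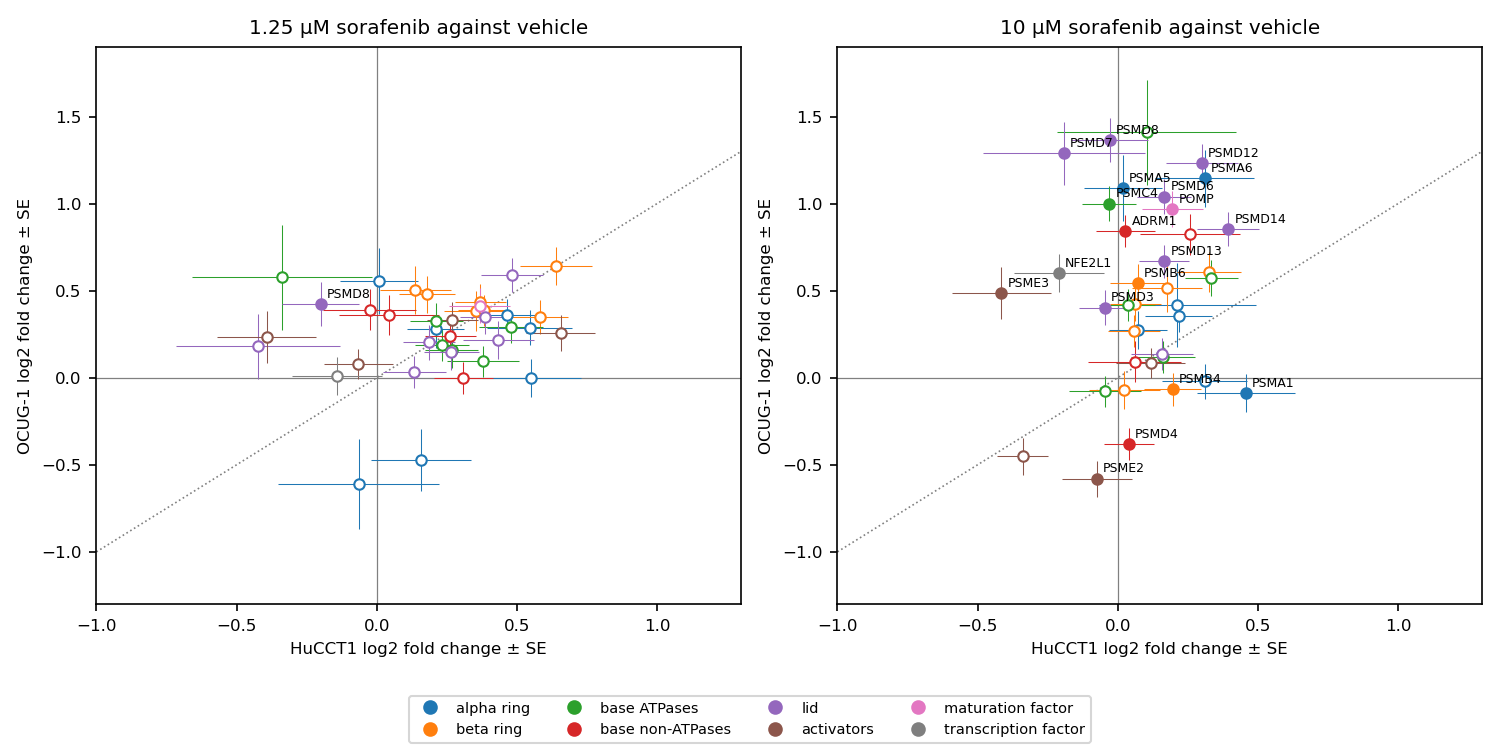
The log2 fold change of each of the 38 genes against vehicle in HuCCT1 (x axis) and OCUG-1 (y axis), with SE bars, at 1.25 µM (left) and 10 µM sorafenib (right); colour gives the place in the complex and the dotted line marks equal change. Filled, named points are the genes whose response differed between the lines, 1 at 1.25 µM and 19 at 10 µM. At 10 µM, PSMD7, PSMD8, PSMA5, PSMC4 and PSMD12 lie far above the line.

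Adding IACS-010759 to 1.25 µM sorafenib in OCUG-1 was followed by 13 members higher and 7 lower than under 1.25 µM alone, where 58.1% of all genes were called, 31.4% higher and 26.7% lower. The higher genes were led by PSMA6 (1.28), PSMA2 (1.17, from a low level), PSMD8 (0.91) and PSMD12 (0.88), and the lower ones were PSME1, PSME2, PSMB3, PSMB4, PSMA3, PSMD1 and PSMD4. The split moved with scaling, to 19 higher and 4 lower with plain library size, which raises the median of all genes by 0.151. In HuCCT1 the same addition left 0 higher and 2 lower, PSME1 and PSME2, where 11.6% of all genes were called, 5.06% higher and 6.57% lower; it was 1 higher and 7 lower without 1.25 µM replicate 3, and 5 higher and 12 lower without replicate 3 of every arm. By the interaction term this step differed between the lines for 11 members, 8 higher and 3 lower in OCUG-1, where 38.8% of all genes differed, 18.6% higher and 20.2% lower. That split was 8 and 1 with plain library size, and 7 and 2 without replicate 3 of every HuCCT1 arm. Against vehicle, the combination had 24 higher and 2 lower in OCUG-1, where 59.5% of all genes were called, 31.5% higher and 28.1% lower. In HuCCT1 it had 3 higher and 1 lower, where 20.1% were called, 9.94% higher and 10.1% lower. This HuCCT1 count was 1 without any one of the 3 combination libraries or vehicle replicate 1, 3 higher with 2 lower in DESeq2, and 10 higher with 1 lower without replicate 3 of every arm. The comparisons of 1.25 µM, 10 µM and the combination with vehicle share the vehicle libraries of their line, and their values are set side by side only.

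The 10 µM and 1.25 µM arms were also compared directly. In OCUG-1, 17 members were higher and 7 lower at 10 µM (60.5% of all genes called, 31.6% higher and 29% lower), or 21 and 5 with plain library size. In HuCCT1, 0 were higher and 8 lower (28.2% called, 14.4% higher and 13.7% lower): PSMB1, PSMB3, PSMB4, PSMB7, PSMC3, PSMC5, PSME1 and PSME2. Plain library size, which raises the median of all genes by 0.18, left 3 lower and turned the members' median from -0.12 to 0.06, and fitting these 2 groups alone also left 3. Leaving out one library took the HuCCT1 count to 3 (1.25 µM replicate 1), 4 (1.25 µM replicate 2 or 10 µM replicate 1) or 14 (10 µM replicate 2), and it was 8 higher with 8 lower without replicate 3 of every arm.

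The alpha ring gates the entrance of the barrel. PSMA6 read 8.21, 7.17 and 9.78 CPM in the 3 OCUG-1 vehicle libraries, 5.08, 6.59 and 6.39 at 1.25 µM, 22.3, 15.6 and 17.7 at 10 µM and 16.1, 14.6 and 13.4 in the combination. Every 10 µM and combination library lay above every vehicle library, and every 1.25 µM library lay below vehicle. The level is low, and 14.1% of its exon bases are shared with another gene of the same strand. The log2 fold change at 10 µM was 1.15 (SE 0.16, adjusted p = 8.05e-06) by edgeR's quasi-likelihood test with Benjamini-Hochberg adjustment. PSMA5 read 61.4, 99.4 and 79.5 CPM in OCUG-1 vehicle and 155, 182 and 174 at 10 µM, a log2 fold change of 1.09 (SE 0.19), and did not overlap between these groups. PSMA4 and PSMA7 rose less, by log2 fold changes of 0.36 and 0.28, and the PSMA7 call ended without 10 µM replicate 1 or 3 or vehicle replicate 1 or 3. PSMA1, PSMA2 and PSMA3 were not called at 10 µM in OCUG-1. In HuCCT1, none of the 7 was called at 10 µM, and 3 rose at 1.25 µM: PSMA1 by 0.55, PSMA3 by 0.55 and PSMA4 by 0.47. Of all genes in that line, 24.2% were called at 10 µM and 9.98% rose at 1.25 µM. PSMA3 read 189, 195 and 147 CPM in HuCCT1 vehicle and 293, 282 and 200.1 at 1.25 µM, where replicate 3 was the lowest of each group. The HuCCT1 PSMA1 and PSMA3 calls ended without 1.25 µM replicate 1, 1.25 µM replicate 2 or vehicle replicate 3, the PSMA1 call also without vehicle replicate 1, and the PSMA4 call without 1.25 µM replicate 2.

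The beta ring holds the cutting sites, and most of its genes rose at the low dose in both lines. In OCUG-1, 7 of 7 beta subunits rose at 1.25 µM and in HuCCT1 5 of 7, all but PSMB5 and PSMB6, beside 5.92% and 9.98% of all genes higher. The OCUG-1 calls of PSMB2 and PSMB4 each ended in 7 of 11 alternatives. The HuCCT1 calls of PSMB1, PSMB2 and PSMB7 ended in 3, 7 and 2 of 12 alternatives, each time with library-size scaling among them. Those of PSMB3 and PSMB4 held in all 12. PSMB3, a structural subunit, had the largest rise of the 38 genes at 1.25 µM in OCUG-1. It read 282, 253 and 257 CPM in OCUG-1 vehicle, 478, 398 and 361 at 1.25 µM, 251, 240.3 and 265 at 10 µM and 262, 291 and 255 in the combination. Only at 1.25 µM did all 3 libraries stand above all vehicle libraries. The log2 fold change was 0.64 (SE 0.11, adjusted p = 0.00152) at 1.25 µM by edgeR's test with Benjamini-Hochberg adjustment, and -0.07 (SE 0.11) at 10 µM, which was not called. In HuCCT1 the 1.25 µM libraries were again the highest, and the combination also lay above vehicle, with 141, 164 and 128 CPM in vehicle, 243, 241 and 191 at 1.25 µM, 147, 169 and 125 at 10 µM and 174, 177 and 173 in the combination. Its log2 fold change at 1.25 µM was 0.64 (SE 0.13, adjusted p = 0.00324) by the same test, and from 1.25 to 10 µM the log2 fold change was -0.61, also called. PSMB4, another structural subunit, had log2 fold changes of 0.58 in HuCCT1 and 0.35 in OCUG-1 at 1.25 µM and -0.39 and -0.42 from 1.25 to 10 µM, all 4 called. The OCUG-1 PSMB4 call at 1.25 µM ended in 5 of the 6 fits that left out 1 library, all but the one without 1.25 µM replicate 3.

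PSMB1 and PSMB2, structural beta subunits, rose in OCUG-1 at both doses, but at 1.25 µM the PSMB2 call ended in 7 of 11 alternatives and the PSMB1 call without 1.25 µM replicate 2. PSMB1 read 209, 227 and 220.3 CPM in vehicle, 279.6, 306 and 302 at 1.25 µM and 271, 303 and 307 at 10 µM. PSMB2 read 132, 163 and 155 CPM in vehicle, 173, 195 and 220.0 at 1.25 µM and 225, 222 and 240.3 at 10 µM. For both genes each treated library lay above all vehicle libraries. In HuCCT1 PSMB2 was the beta subunit that rose at 10 µM, by 0.33, a call that ended without 10 µM replicate 1 or 2 or vehicle replicate 1 or 2.

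The 3 catalytic subunits were above vehicle at both doses and in the combination in OCUG-1. PSMB5, the chymotrypsin-like subunit, read 75.0, 90.1 and 91.6 CPM in OCUG-1 vehicle, 95.8, 135 and 134 at 1.25 µM, 112, 123 and 133 at 10 µM and 138, 102 and 114 in the combination. All treated libraries exceeded all vehicle libraries. The log2 fold changes were 0.50, 0.52 and 0.47, each called, though at 1.25 µM the call ended without 1.25 µM replicate 2 or 3 or vehicle replicate 1 or 3, and in the combination without combination replicate 1. PSMB6, the caspase-like subunit, rose by 0.48, 0.54 and 0.46, and PSMB7, the trypsin-like subunit, by 0.39, 0.27 and 0.35, in the same order. The PSMB7 calls at 1.25 and 10 µM ended without vehicle replicate 3, and the PSMB6 call at 1.25 µM without 1.25 µM replicate 2. In HuCCT1, PSMB5 read 50.2, 45.8 and 63.4 CPM in vehicle and 61.6, 61.8 and 56.7 at 10 µM, where the log2 fold change was 0.18 (SE 0.13) and not called. The ranges overlapped only through vehicle replicate 3, and all 10 µM values were above vehicle replicates 1 and 2.

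The base ATPases, the ring that unfolds substrates, moved unevenly. PSMC4 read 136, 131 and 130.3 CPM in OCUG-1 vehicle, 175, 161 and 165 at 1.25 µM, 245, 302 and 250.02 at 10 µM and 282, 258 and 271 in the combination. The 4 arms fell into 3 separate bands, with 10 µM and the combination together at the top. The log2 fold change at 10 µM was 1.00 (SE 0.10, adjusted p = 9.11e-08) by edgeR's test with Benjamini-Hochberg adjustment, against -0.03 (SE 0.09) in HuCCT1, where PSMC4 read 105, 104 and 104 CPM in vehicle and 95.1, 116 and 95.1 at 10 µM. The difference between the lines was 0.96 (SE 0.14, adjusted p = 1.28e-06) by the interaction term in edgeR. PSMC6 rose in both lines at 10 µM, by 0.57 in OCUG-1 and 0.33 in HuCCT1, the latter lost without 10 µM replicate 1 or 2 or vehicle replicate 2. PSMC2 rose by 0.42 in OCUG-1, while PSMC3 (0.12) and PSMC5 (-0.08) were not called there. PSMC1 had the largest fold change of the 38, 1.41 (SE 0.30), from a low level: it read 20.5, 25.1 and 20.6 CPM in OCUG-1 vehicle and 52.9, 53.7 and 69.7 at 10 µM, and 75.8% of its exon bases are shared with NRDE2 on the other strand, so its change is uncertain.

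Of the 4 other base subunits, which hold the ubiquitin receptors and the scaffold, 2 rose and 1 fell at 10 µM in OCUG-1. Of all genes, 63.1% were called there, 32.4% higher and 30.7% lower. ADRM1, a ubiquitin receptor, read 103, 91.5 and 92.2 CPM in vehicle, 98.5, 94.8 and 93.9 at 1.25 µM, 166, 165 and 183 at 10 µM and 158, 155 and 154 in the combination. It stayed within the vehicle range at 1.25 µM and stood clear of it in both other arms, with a log2 fold change of 0.84 (SE 0.09, adjusted p = 2.78e-07) at 10 µM by edgeR's test with Benjamini-Hochberg adjustment. PSMD4, another ubiquitin receptor of the base, went the opposite way. It read 225, 222 and 201 CPM in vehicle, 261, 257 and 247 at 1.25 µM and 163, 166 and 169 at 10 µM, a log2 fold change of -0.38 (SE 0.09, adjusted p = 0.00134) at 10 µM by the same test. The scaffold PSMD2 read 206, 233 and 217 CPM in vehicle and 395, 359 and 408 at 10 µM, a rise of 0.82. PSMD1, the other scaffold, was not called at 10 µM (0.09) and was lower than under 1.25 µM alone in the combination (-0.36), a call that ended without combination replicate 2 or 1.25 µM replicate 3. With all 3 replicates, 0 of the 4 were called at either dose in HuCCT1. Of all genes there, 18.5% were called at 1.25 µM and 24.2% at 10 µM.

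The lid removes ubiquitin chains through PSMD14. In OCUG-1 at 10 µM 7 of 8 listed lid genes rose, all but PSMD11, where 32.4% of all genes rose and 30.7% fell. The median log2 fold change of these 8 was 0.95, the highest of the 5 subunit groups. The others had 0.36 for the alpha ring, 0.43 for the beta ring, 0.49 for the ATPases and 0.46 for the other base subunits. The small lid protein SEM1 was listed with the other proteasome-bound proteins and is not among the 8. Its levels overlapped in OCUG-1, with 141, 116 and 121 CPM in vehicle and 106, 139 and 113 at 10 µM. PSMD12 read 138, 147 and 147 CPM in vehicle, 179.9, 165 and 156 at 1.25 µM, 319, 391 and 305 at 10 µM and 324, 318 and 281 in the combination. The lowest 10 µM or combination library was well above the highest of the other 2 arms. The log2 fold change at 10 µM was 1.23 (SE 0.11, adjusted p = 2e-08) and in the combination against 1.25 µM 0.88 (SE 0.11, adjusted p = 1.75e-06), both by edgeR's test with Benjamini-Hochberg adjustment. PSMD8 read 75.7, 75.5 and 64.6 CPM in vehicle, 80.5, 96.8 and 112 at 1.25 µM and 172, 189.9 and 194 at 10 µM, a log2 fold change of 1.37 at 10 µM. PSMD6 read 117, 139 and 131 CPM in vehicle, 132, 144 and 153 at 1.25 µM and 248, 289.8 and 257 at 10 µM. For PSMD8 and PSMD6 alike, the 10 µM libraries stood above every library of the other 2 arms. PSMD6 rose by 1.04, PSMD13 by 0.67, PSMD3 by 0.40 and PSMD7 by 1.29, the last from a low level (15.3, 11.02 and 12.6 CPM in vehicle).

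PSMD14, the deubiquitinase, was the lid gene that rose in both lines at both doses. It read 76.0, 86.1 and 76.5 CPM in OCUG-1 vehicle, 121, 119.5 and 118 at 1.25 µM, 138, 152 and 142 at 10 µM and 145, 137 and 122 in the combination. In HuCCT1 it read 96.8, 88.7 and 97.2 CPM in vehicle, 121, 134 and 139 at 1.25 µM, 129, 139 and 103 at 10 µM and 118, 124 and 115 in the combination. No treated library of either line fell within its vehicle range. The log2 fold changes at 1.25 and 10 µM were 0.59 and 0.86 in OCUG-1 and 0.48 and 0.39 in HuCCT1; the HuCCT1 call at 10 µM ended without 10 µM replicate 1 or 2 or vehicle replicate 2. In HuCCT1 PSMD12 and PSMD13 also rose at 1.25 µM, by 0.43 and 0.39, the PSMD12 call ending in 5 of the 6 fits that left out 1 library.

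Ratios of raw counts within a library do not depend on scaling. The 8 lid genes summed to 0.448, 0.465 and 0.453 of the 14 core genes in OCUG-1 vehicle, 0.383, 0.410 and 0.426 at 1.25 µM, 0.652, 0.662 and 0.627 at 10 µM and 0.616, 0.592 and 0.613 in the combination. The 3 OCUG-1 bands, low at 1.25 µM, middle in vehicle and high in the other arms, did not overlap. In HuCCT1 the ratio was 0.549, 0.493 and 0.584 in vehicle and 0.537, 0.533 and 0.546 at 10 µM, where the 10 µM values lay inside the vehicle range.

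**Figure D3:**
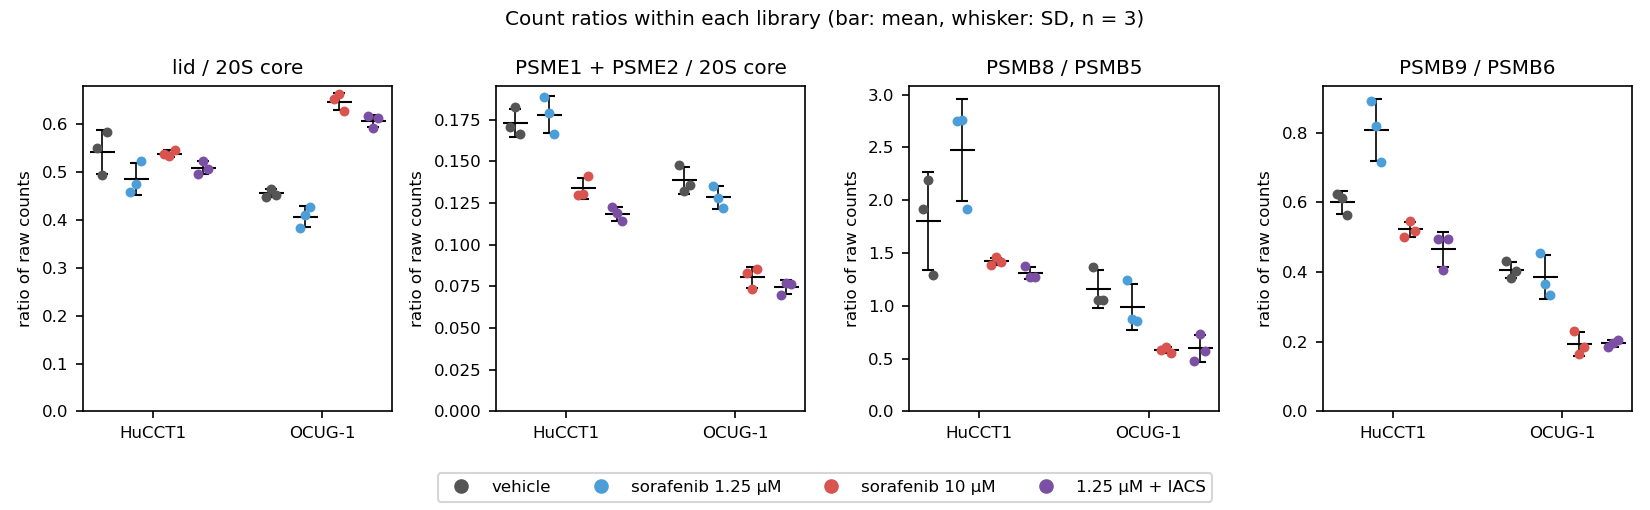
Ratios of raw counts in each library by line and arm: the 8 lid genes over the 14 core genes, PSME1 plus PSME2 over the core, PSMB8 over PSMB5 and PSMB9 over PSMB6, with mean and SD bars (n = 3). In OCUG-1 the lid ratio is higher at 10 µM and in the combination, and the other 3 ratios are lower, with no overlap with vehicle.

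POMP, which guides the joining of the core, read 112, 134 and 129.6 CPM in OCUG-1 vehicle, 159, 167 and 173 at 1.25 µM, 224, 264 and 246 at 10 µM and 236, 219 and 215 in the combination. The vehicle, 1.25 µM and remaining libraries stood in 3 steps without overlap, and the log2 fold changes against vehicle were 0.41, 0.97 and 0.84. In HuCCT1 it read 101, 94.4 and 84.6 CPM in vehicle, 119, 126 and 117 at 1.25 µM and 108, 122 and 90.1 at 10 µM. There only 1.25 µM was called, at 0.37, and that call ended without 1.25 µM replicate 1 or 2 or vehicle replicate 2 or 3. The OCUG-1 call at 1.25 µM ended without 1.25 µM replicate 2 or 3 or vehicle replicate 1. The response to 10 µM differed between the lines by 0.70 (SE 0.15, adjusted p = 0.000331) in edgeR's interaction term.

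NFE2L1 read 172, 184 and 162 CPM in OCUG-1 vehicle, 159, 176 and 187 at 1.25 µM, 252, 253 and 282 at 10 µM and 325, 251 and 281 in the combination. The 1.25 µM values lay around those of vehicle and the other arms stood above both. The log2 fold changes were 0.01 (SE 0.11) at 1.25 µM, 0.60 (SE 0.11, adjusted p = 0.000101) at 10 µM and 0.73 (SE 0.11, adjusted p = 1.56e-05) in the combination, by edgeR's test with Benjamini-Hochberg adjustment. In HuCCT1 it was not called in any comparison, with 155, 169 and 229.9 CPM in vehicle and 142, 141 and 197 at 10 µM, where replicate 3 was the highest of each group. The response to 10 µM differed between the lines by 0.74 (log2).

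**Figure D4:**
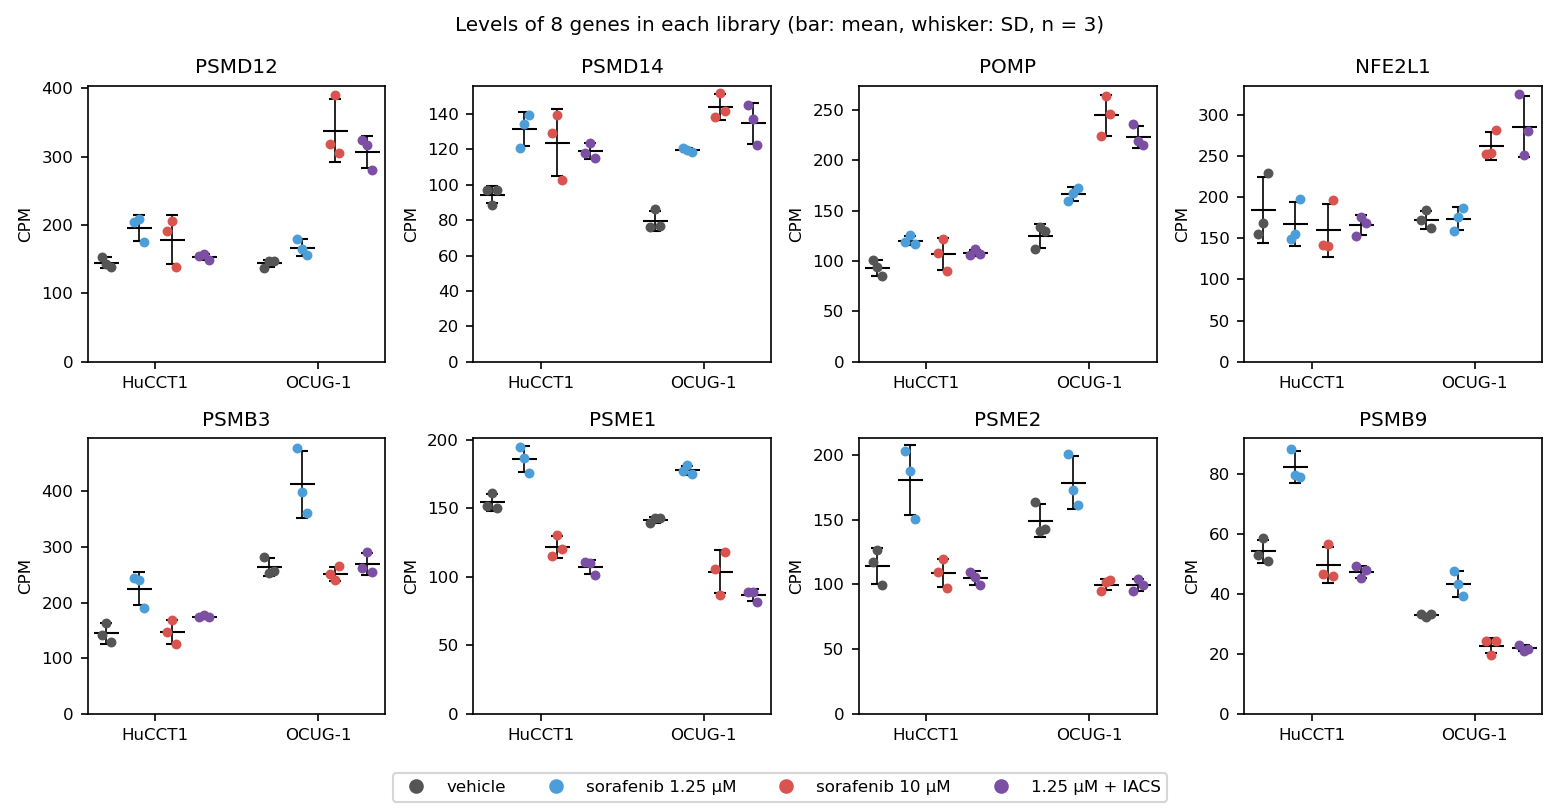
CPM of 8 genes in each library by line and arm (points), with mean and SD bars (n = 3) on axes from 0. Within OCUG-1, PSMD12, PSMD14, POMP and NFE2L1 are highest at 10 µM and in the combination. PSMB3 is highest at 1.25 µM, and PSME1, PSME2 and PSMB9 are lower at 10 µM and in the combination than at 1.25 µM in both lines.

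PSME1 and PSME2, which form the ring that interferon induces, were lower under the combination than under 1.25 µM sorafenib in both lines. PSME1 read 151, 161 and 150.4 CPM in HuCCT1 vehicle, 195, 187 and 176 at 1.25 µM, 115, 131 and 120.4 at 10 µM and 111, 109.8 and 101 in the combination. In OCUG-1 it read 139, 143 and 143 CPM in vehicle, 177, 182 and 175 at 1.25 µM, 106, 86.8 and 118 at 10 µM and 89.2, 89.2 and 81.8 in the combination. In both lines the 1.25 µM libraries were above, and the 10 µM and combination libraries below, all vehicle libraries. At 1.25 µM the difference from vehicle was not called in either line. From 1.25 µM to the combination the log2 fold change was -0.79 (SE 0.09, adjusted p = 4.52e-05) in HuCCT1 and -1.04 (SE 0.11, adjusted p = 1.72e-07) in OCUG-1, by edgeR's test with Benjamini-Hochberg adjustment. At 10 µM against vehicle it was -0.34 and -0.45, and the HuCCT1 call ended without 10 µM replicate 1 or vehicle replicate 2.

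PSME2 read 117, 127 and 99.6 CPM in HuCCT1 vehicle, 203, 187 and 151 at 1.25 µM, 109.6, 119 and 97.2 at 10 µM and 109.9, 106 and 99.3 in the combination. Only at 1.25 µM did all 3 libraries stand outside the vehicle range there, higher by 0.66 (SE 0.12, adjusted p = 0.00224) in edgeR's test with Benjamini-Hochberg adjustment. In OCUG-1 it read 164, 141 and 143 CPM in vehicle, 201, 173 and 161 at 1.25 µM, 94.9, 102 and 103 at 10 µM and 94.5, 104 and 99.9 in the combination, so that both last arms lay under vehicle. From 1.25 µM to the combination the PSME2 log2 fold change was -0.78 in HuCCT1 and -0.84 in OCUG-1, and both calls held in every alternative run for them. PSME3, a nuclear activator, rose in OCUG-1 at 10 µM by 0.49, a call lost without vehicle replicate 1. It read 46.9, 65.3 and 60.0 CPM in OCUG-1 vehicle and 80.7, 75.9 and 84.6 at 10 µM, and 140.5, 114 and 191 in HuCCT1 vehicle, where replicate 3 was the highest. PSME4 was called in no comparison.

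The interferon-inducible catalytic subunits, which replace PSMB5, PSMB6 and PSMB7, were lower in the same comparisons. From 1.25 µM to the combination PSMB8, PSMB9 and PSMB10 had log2 fold changes of -0.77, -0.80 and -0.80 in HuCCT1 and -0.76, -0.99 and -0.54 in OCUG-1, all 6 called. PSMB9 read 33.2, 32.5 and 33.3 CPM in OCUG-1 vehicle, 47.7, 43.4 and 39.2 at 1.25 µM, 24.2, 19.8 and 24.4 at 10 µM and 23.0, 21.0 and 21.7 in the combination. The 10 µM and combination libraries lay below, and the 1.25 µM libraries above, all vehicle libraries.

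Within libraries, PSME1 and PSME2 together made up 0.171, 0.182 and 0.166 of the core counts in HuCCT1 vehicle, 0.189, 0.179 and 0.166 at 1.25 µM, 0.130, 0.130 and 0.141 at 10 µM and 0.122, 0.119 and 0.114 in the combination. In OCUG-1 the ratio was 0.148, 0.132 and 0.136 in vehicle, 0.135, 0.128 and 0.122 at 1.25 µM, 0.0828, 0.0731 and 0.0852 at 10 µM and 0.0696, 0.0773 and 0.0763 in the combination. In both lines the last 2 arms lay below vehicle and 1.25 µM without overlap. The ratio of PSMB8 to PSMB5 counts was 1.37, 1.06 and 1.06 in OCUG-1 vehicle and 0.580, 0.612 and 0.554 at 10 µM. In HuCCT1 it was 1.92, 2.19 and 1.29 in vehicle, 2.75, 2.76 and 1.92 at 1.25 µM, 1.39, 1.46 and 1.42 at 10 µM and 1.38, 1.28 and 1.28 in the combination. The 10 µM values lay inside the vehicle range only through vehicle replicate 3, and those of 10 µM and the combination were below vehicle replicates 1 and 2. The tissue subunits PSMB11 and PSMA8 were too low to test.

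The summed level of a list of 24 interferon response genes in HuCCT1 was 6250 to 7958 CPM in vehicle, 7439 to 8075 at 1.25 µM, 2028 to 3210 at 10 µM and 1581 to 1857 in the combination. From 1.25 µM to the combination 24 of 24 genes fell, beside 6.57% of all genes. In OCUG-1 the sums were 760 to 792, 926 to 988, 739 to 753 and 707 to 763 CPM. In that line 7 of the 24 rose and 6 fell from 1.25 µM to the combination, where 31.4% of all genes rose and 26.7% fell. The part of the interferon genes in the PSME1, PSME2 and PSMB8 to PSMB10 results was not tested.

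A list of 16 genes held those that process or partner NFE2L1 and also NFE2L2, NFE2L3, KEAP1 and BACH1. Of the 16, 11 rose and 1 fell at 10 µM in OCUG-1 (median 0.65), where 32.4% of all genes rose and 30.7% fell. In HuCCT1 it was 2 and 1, where 13% rose and 11.2% fell. DDI2, the protease that cuts NFE2L1, read 28.0, 28.2 and 26.5 CPM in OCUG-1 vehicle, 22.4, 22.5 and 21.3 at 1.25 µM, 39.5, 51.2 and 44.2 at 10 µM and 46.9, 39.9 and 45.5 in the combination. The last 2 arms stood above vehicle and 1.25 µM, which was not called, below it. The log2 fold change at 10 µM was 0.71 (SE 0.11, adjusted p = 2.4e-05) by edgeR's test with Benjamini-Hochberg adjustment. In HuCCT1 DDI2 fell, with log2 fold changes of -0.68 at 1.25 µM and -0.45 at 10 µM, and the difference between the lines at 10 µM was 1.09. SEL1L, of the retrotranslocation machinery, rose by 2.05 and the small Maf partners MAFF, MAFG and MAFK by 1.40, 0.61 and 0.82 in OCUG-1 at 10 µM. NFE2L2, the related factor of the oxidative response, fell there (-0.50). NFE2L3, another relative, rose at 1.25 µM in both lines (0.41 in HuCCT1 and 0.90 in OCUG-1) and read 147, 165 and 154 CPM in OCUG-1 vehicle and 300.4, 294 and 275 at 1.25 µM.

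Of 8 assembly chaperones, 5 rose and 1 fell at 10 µM in OCUG-1 and 1 rose in HuCCT1. PSMG1, a chaperone of the alpha ring, rose by 0.38 in OCUG-1 and 0.31 in HuCCT1, and its partner PSMG2 fell in OCUG-1 (-0.60). Of 9 other proteasome-bound proteins, 7 rose and 0 fell in OCUG-1 at 10 µM, among them the deubiquitinase USP14 (0.67) and the inhibitor PSMF1 (0.89), against 2 higher and 1 lower in HuCCT1. Of 12 ubiquitin and shuttle genes, 7 rose and 1 fell in OCUG-1 and 2 rose in HuCCT1. The shuttle SQSTM1 was not called in OCUG-1 (-0.34). These counts stand beside 63.1% of all genes called in OCUG-1 and 24.2% in HuCCT1.

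Other measures moved with the same OCUG-1 arms. The share of counts from mitochondrial genes moved with these arms in OCUG-1: it was 11.1 to 13.6% in vehicle, 5.65 to 6.25% at 10 µM and 4.71 to 6.48% in the combination. The 7 biliary markers summed to 4788 to 5631 CPM in vehicle and 1259 to 1609 at 10 µM. Of them 2 were higher and 4 lower, beside 32.4% and 30.7% of all genes. The 5 fibroblast markers summed to 96.5 to 111 CPM and 28.5 to 39.4, with COL1A1 making up most of the sum and COL1A2 at or near 0. Their part in the results was not tested.

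Without drug, 11 members were higher and 13 lower in OCUG-1 than in HuCCT1, where 68.3% of all genes were called, 35.6% higher and 32.7% lower; with plain library size, which raises the median of all genes by 0.15, the split was 18 and 7. Without HuCCT1 replicate 3 it was 10 and 12. Of the 14 core genes 7 were higher in OCUG-1 and 3 lower, and of the 18 genes of the 19S particle 3 were higher and 8 lower. PSMB1 had the smallest adjusted p, with a log2 fold change of 0.87 (SE 0.10, adjusted p = 2.92e-09) by edgeR's test with Benjamini-Hochberg adjustment; it was singled out after its values were seen. PSME3 was lower in OCUG-1, with a log2 fold change of -1.54.

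Between genes, levels were compared per kilobase of the principal transcript. In HuCCT1 vehicle, PSMB4 was the highest subunit at 232 CPM per kb, and the median of 27 subunits was 70.5. The 5 subunits PSMA1, PSMA2, PSMA6, PSMC1 and PSMD7, singled out after their values were seen, lay at 2.2 to 21.0 CPM per kb, under the lowest of the other 27, PSMA5 at 25.6. In OCUG-1 they lay at 4.46 to 38.1, and the others at 21.5 to 404, so that the ranges overlapped. In GENCODE 29 each of the 5 shares exon bases with another gene: 24.7% for PSMA1, 34.6% for PSMA2, 14.1% for PSMA6, 75.8% for PSMC1 and 30.7% for PSMD7. PSMC5 (19.5%) and ADRM1 (17.2%) share bases too and had levels of 121 and 70.5 CPM per kb in HuCCT1. The sources used here do not say how reads over shared exons were counted, so the levels and changes of these genes are uncertain.

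**Figure D5:**
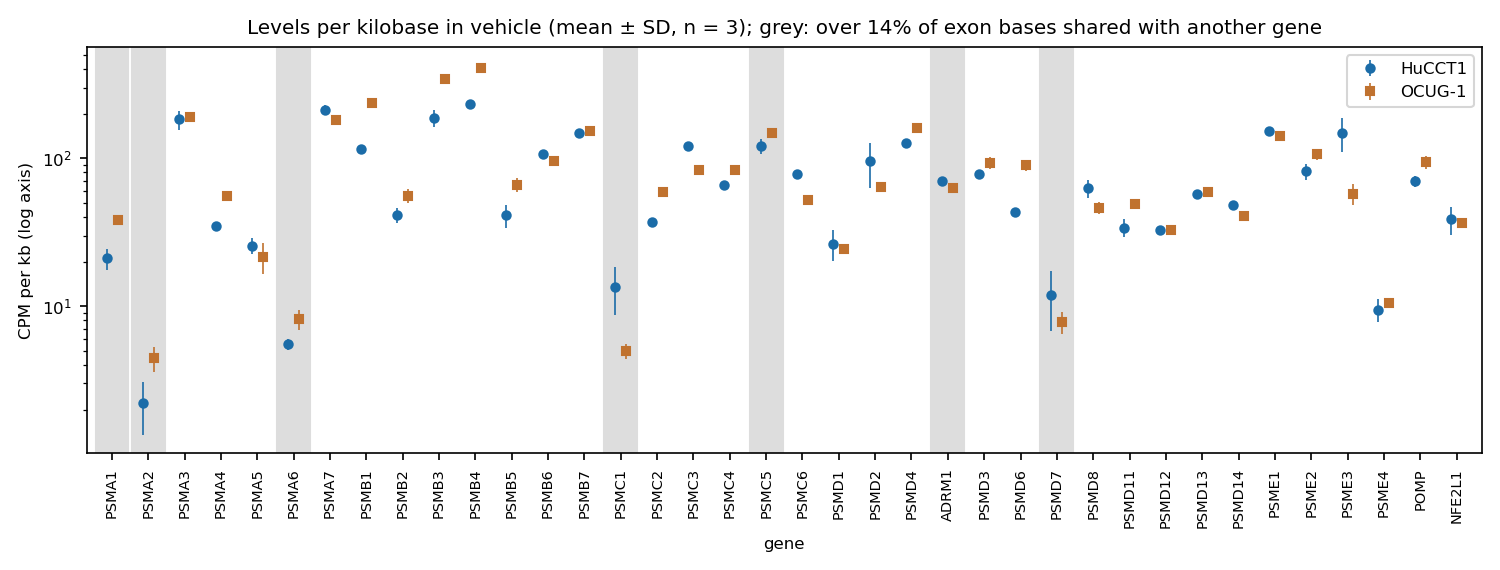
Vehicle level of the 38 genes in CPM per kb of transcript (log axis; mean and SD, n = 3) in HuCCT1 (circles) and OCUG-1 (squares), with genes that share more than 14% of their exon bases with another gene on grey. In HuCCT1 5 of the 7 grey genes lie below the other subunits, and PSMC5 and ADRM1 do not. In OCUG-1 PSMA1 lies above PSMA5 and PSMD12.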

How the data were processed

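Gene counts of 24 libraries were deposited by the authors as 1 raw count table per line. Per the submitters' processing notes, bcl2fastq, fastp 1.3.2, HISAT2 2.2.2, featureCounts of Subread 2.1.1, MultiQC 1.33, R 4.4.1, DESeq2 1.42.1 and GRCh38 were named; the annotation release, strand setting and handling of shared reads: not given in the sources used here. Per the labels, 4 OCUG-1 libraries were sequenced in additional runs.

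Counts were filtered with filterByExpr (minimum count 10), scaled by TMM and fitted with glmQLFit and glmQLFTest of edgeR 4.0.16 (limma 3.58.1, R 4.3.3) in 1 fit per line, and in 1 joint fit for differences between lines, with Benjamini-Hochberg adjustment at 0.05 over 19576, 20511 and 22944 genes. The fit was run on simulated counts with known changes, the same spread for every gene and no outlying replicate. That run checks the code and not how the fit behaves on these libraries. Alternatives were DESeq2 1.42.0, library-size scaling, no filter, the compared groups alone, a replicate block and each library left out. All 38 genes were counted. Values were given for called genes, not only those with the largest changes, and for a set panel. Some values outside both were given too, such as those of PSMC3, PSMC5 and PSMD1 at 10 µM in OCUG-1. Only some of the other choices are marked as made after the values were seen. The members and lists were chosen with earlier results of these data known. Gene names came from a table of Ensembl IDs and symbols that matched 61481 of 78724 IDs, promoters from RefSeq on GRCh38.p14 and exons from GENCODE 29.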

Additional observations from a re-analysis of the deposited data

Results flagged for a closer look

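The response of 31 gene and comparison pairs differed between the lines, tested by the interaction term of the joint edgeR fit. These counts are to be read against the share of all genes that differed in the same way. Values are log2 fold changes in OCUG-1 minus those in HuCCT1. At 1.25 µM sorafenib, where 9.65% of all genes differed, the difference was 0.66 for the lid gene PSMD8.

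At 10 µM, where 19 of the 38 genes differed beside 43.8% of all genes, the differences in the lid were 1.41 for PSMD7, 1.32 for PSMD8, 0.86 for PSMD12, 0.80 for PSMD6, 0.43 for PSMD13, 0.39 for PSMD14 and 0.38 for PSMD3. In the base they were 0.96 for PSMC4, 0.74 for ADRM1 and -0.49 for PSMD4. In the core they were 1.00 for PSMA5, 0.76 for PSMA6, 0.40 for PSMB6, -0.33 for PSMB4 and -0.62 for PSMA1. The regulators gave 0.83 for PSME3, 0.74 for NFE2L1, 0.70 for POMP and -0.58 for PSME2.

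For the step from 1.25 µM sorafenib to the combination, where 11 of the 38 differed beside 38.8% of all genes, the differences were 1.20 for PSMA6, 1.12 for PSMD12, 0.87 for PSMC4, 0.77 for ADRM1, 0.77 for PSMD6 and 0.62 for PSMD8. NFE2L1 gave 0.61, POMP 0.46, PSME1 -0.36, PSMD4 -0.40 and PSMD1 -0.54.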

How the results depend on the processing

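The 199 member calls were set against 2462 alternative values: 2117 stayed called in the same direction, 345 were no longer called and 0 reversed. Of the values not called, 213 became called under an alternative. PSME3 in HuCCT1, 10 against 1.25 µM, was not called but reached 0.25 with the opposite sign on replicates 1 and 2 only, an alternative chosen after seeing the data. Called members there were 23 (HuCCT1 1.25 µM), 15 (10 µM), 17 (combination against 1.25 µM), 11 (combination against vehicle), 16 (10 against 1.25 µM) and 2 (line difference at 1.25 µM). Leaving out 1 library gave 7 to 19, 0 to 8, 2 to 8, 1 to 3, 3 to 14 and 0 to 7 in the same order, and 3 to 17 for OCUG-1 at 1.25 µM. Library-size scaling gave 3 for HuCCT1 at 1.25 µM, 3 for 10 against 1.25 µM and 6 for OCUG-1 at 1.25 µM. Fitting the compared groups alone gave 0 for HuCCT1 at 10 µM, 9 for the combination against 1.25 µM, 3 for 10 against 1.25 µM and 0 for the line difference at 1.25 µM. DESeq2 gave 4 for the HuCCT1 combination against 1.25 µM, and no filter gave 5 for 10 against 1.25 µM and 3 for the line difference at 1.25 µM. Library-size scaling turned the members' median positive for the HuCCT1 combination against 1.25 µM (0.04), 10 against 1.25 µM (0.06) and the lines at baseline (0.09); the cause of these shifts was not tested.

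The labels give no pairing of libraries by replicate number. In HuCCT1, 6 of 12 libraries correlated best with their own number, with median correlations of 0.0505 for same-number pairs and -0.0236 for other pairs. In OCUG-1 it was 3 of 12, with medians of -0.0295 and 0.00972. These values do not settle whether the HuCCT1 libraries were paired. With a replicate block the counts were 17, 5, 6, 5 and 9 in the 5 HuCCT1 comparisons (1.25 µM, 10 µM, combination against 1.25 µM, combination against vehicle, 10 against 1.25 µM) and 8, 27, 20, 25 and 23 in OCUG-1, 22 at baseline and 1, 20 and 12 for the line differences.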
